A study of Mus musculus with 15 samples.

Results

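The genes described here are 35 genes of the unfolded protein response and of protein folding in the endoplasmic reticulum (ER), measured by RNA sequencing in immortalised mouse brown preadipocytes. They were taken from a list of gene symbols, and all 35 were present among the 29072 genes of the deposited expression table, 34 of them above the filter on low values that left 13869 genes for testing. Of the 35, 6 are chaperones, 7 are disulfide isomerases, 6 are J-proteins or folding cofactors, 8 belong to ER-associated degradation, 4 are stress sensors or their direct product, 2 are eIF2α phosphatase subunits and 2 serve translocation or transport. The one gene under the filter was Derl3, which encodes a derlin of the degradation machinery.

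The cells were a line made from the stromal-vascular fraction of interscapular brown fat of 129SvEv mice by introducing the SV40 large T antigen, a preadipocyte line and not mature brown adipocytes. Whether the line is a clone is not stated. There were 5 groups of 3 libraries each: untreated control cells, and cells given a fibroblast growth factor (FGF) at 5.56 nM for 48 h, namely FGF1, FGF8b, FGF9, or FGF8b together with 2 µM BAY-876, which blocks glucose uptake through GLUT1. The series text places 1 µg/ml heparin, a cofactor for FGF binding to its receptors, with the FGF treatments, and it does not say whether the control received it. There was no group with BAY-876 alone, so an action of BAY-876 cannot be told apart from one that needs FGF8b. No group was labelled as heparin alone. If the control lacked heparin, an action of heparin cannot be told apart from that of the FGFs. Nothing in the labels ties the 3 libraries of a group to separate cultures, so p-values measure only the spread between these libraries, which may be technical.

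Proteins that enter the ER are folded by chaperones, joined by disulfide bonds and, if they fail to fold, sent back to the cytosol for degradation. When unfolded proteins accumulate, the sensors ATF6, IRE1 (gene Ern1) and PERK (gene Eif2ak3) raise transcription of chaperones and degradation factors, through cleaved ATF6 and spliced XBP1, and slow protein synthesis by phosphorylating eIF2α, which the phosphatase subunit GADD34 (gene Ppp1r15a) reverses. Preadipocytes secrete collagens and other matrix proteins, which pass through this machinery on their way out of the cell.

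Values are RPKM, reads scaled by transcript length and by library size, so levels of different genes are compared per length. The level of a gene is that of its transcript row with the highest mean, which was its RefSeq row in 4 of the 35 genes. On RefSeq rows the control level was lower by over 1.5 times for 5 genes: Manf, Derl2, Dnajc3, Erp44 and Canx. Differences are given as log2 changes of RPKM + 0.5 with their standard error (SE), which understate the change of low genes, and a gene was called when its adjusted p from limma over all 13869 genes was under 0.05. Library depths worked out from the values were 27.01 to 42.65 M reads, and the lowest read number behind any tested gene of the 34 in any library was 92, for Sdf2l1. All 7 preadipocyte markers were present in every group, with a summed level of 1666 to 1845 RPKM in control, 846 to 877 with FGF1, 418 to 479 with FGF8b, 415 to 470 with FGF9 and 258 to 262 with FGF8b + BAY-876. This sum moved with the treatments (Ly6a alone averaged 1015 RPKM in control and 52.7 with FGF8b), and its part in the results below was not tested. The markers did not move alike: with FGF8b 5 of the 7 were lower and 2 higher (Cd44 and Thy1), and with FGF1 3 were lower and 2 higher. Of the 6 mature adipocyte markers, Adipoq, Plin1, Cidea and Lep stayed under 0.03 RPKM on average in every group, while Ucp1, the uncoupling protein of brown fat, was at 0.0226 RPKM in control, 26.7 with FGF8b, 37.4 with FGF9 and 0.580 with FGF8b + BAY-876. The remaining marker, Fabp4, averaged 8.05 RPKM with FGF1 and 7.66 with FGF8b. The sum of the 6 was 5.03 to 6.69 RPKM in control, 7.41 to 9.27 with FGF1, 32.7 to 35.5 with FGF8b, 40.8 to 48.3 with FGF9 and 5.47 to 6.43 with FGF8b + BAY-876, and its part was not tested either. Defining markers of macrophages (Ptprc, Emr1), endothelium (Pecam1, Cdh5), muscle (Myod1, Myog) and plasma cells (Mzb1, Igj), the last being cells with a large ER, averaged at most 0.118 RPKM in any group. The summed level of all 4 endothelial markers was 7.45 to 8.86 RPKM in control and 0.391 to 0.545 with FGF8b, nearly all of it Kdr and Tek. The sum of the 5 macrophage markers was 2.73 to 5.61 RPKM over all libraries, of which Cd14 was higher with BAY-876 than with FGF8b by 0.68 and Csf1r by 0.28. The sum was 3.99 to 8.45 RPKM for the 4 muscle markers, nearly all Acta1, and 20.04 to 32.6 for the 5 plasma cell markers, nearly all Sdc1, and the part of these levels was not tested. In these bulk samples, fewer cells of a kind and less RNA per cell cannot be told apart.

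The start-site sequences are shown first, because the known binding sequences of the ATF6 and XBP1 branch allow the genes to be split by sequence. No expression value of these data entered the search. The genes were themselves chosen as genes of this response, so their share with the element is a description and not a test. The ER stress element (ERSE, searched as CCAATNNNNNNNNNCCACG on both strands) was found in RefSeq promoter windows, from 250 bases before to 50 bases after the start site in GRCm38.p6. Windows existed for 29 of the 35 genes, and 9 of these 29 (31%) held the element, against 37 of all 27025 genes with a window (0.137%). The 9 genes were Hspa5, Hsp90b1, Calr, Canx, Pdia6, Dnajc3, Creld2, Syvn1 and Derl3. Each element is printed in capitals with 20 bases on either side, 5′ to 3′ on the strand of the gene, so that an element in the opposite orientation reads CGTGG first and ATTGG last.
Hspa5: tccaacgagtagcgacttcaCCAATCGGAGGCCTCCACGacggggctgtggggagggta
Hsp90b1 distal: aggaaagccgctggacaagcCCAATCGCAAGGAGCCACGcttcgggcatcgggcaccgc
Hsp90b1 proximal: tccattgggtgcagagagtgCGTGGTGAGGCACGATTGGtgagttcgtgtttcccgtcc
Calr: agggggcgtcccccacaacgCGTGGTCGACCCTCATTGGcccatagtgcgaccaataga
Canx: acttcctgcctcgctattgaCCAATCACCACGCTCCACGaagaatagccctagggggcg
Pdia6: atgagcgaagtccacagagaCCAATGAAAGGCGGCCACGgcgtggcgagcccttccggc
Dnajc3: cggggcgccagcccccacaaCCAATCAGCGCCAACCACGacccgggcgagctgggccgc
Creld2: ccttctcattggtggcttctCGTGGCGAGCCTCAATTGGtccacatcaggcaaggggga
Syvn1: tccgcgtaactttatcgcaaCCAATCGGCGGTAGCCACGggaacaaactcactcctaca
Derl3: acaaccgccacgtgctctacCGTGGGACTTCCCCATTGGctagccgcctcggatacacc
The stretches lie at chr2:34772005-34772063 (plus strand) for Hspa5, chr10:86705618-86705676 and chr10:86705513-86705571 (minus strand) for Hsp90b1, chr8:84847055-84847113 (minus strand) for Calr and chr11:50325780-50325838 (minus strand) for Canx. Those of the other 5 genes lie at chr12:17266471-17266529 (Pdia6), chr14:118937807-118937865 (Dnajc3), chr15:88819500-88819558 (Creld2), chr19:6046512-6046570 (Syvn1) and chr10:75893222-75893280 (Derl3), all on the plus strand. The elements began between 44 bases (Syvn1) and 212 bases (Hsp90b1) before the start site.

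**Figure D1:**
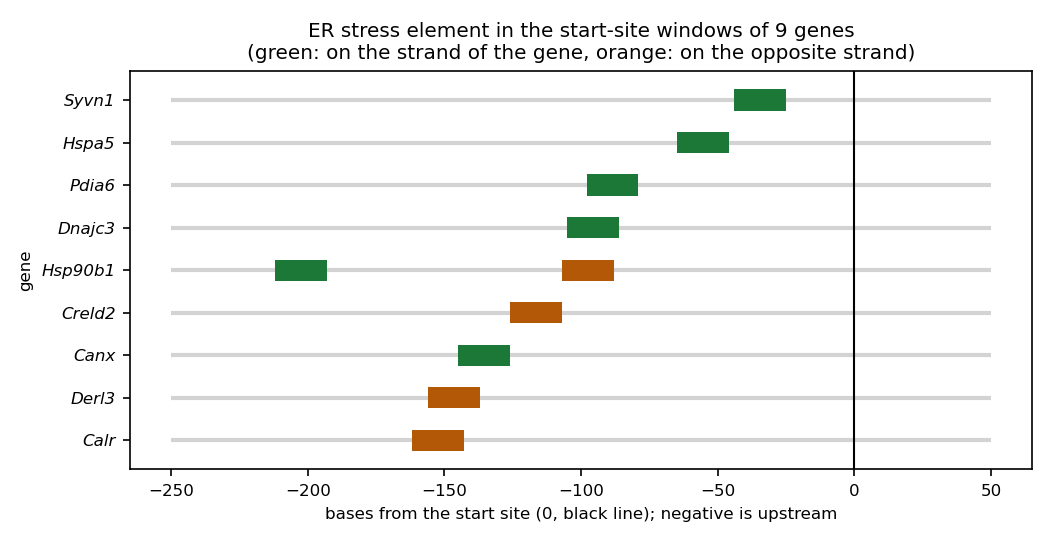
Position of each ER stress element (coloured bars) in the start-site windows of the 9 genes that hold one, in bases from the start site on the x axis. Hsp90b1 has 2 elements, all 10 lie upstream, and 6 are oriented along the gene (green) and 4 against it (orange).

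A shorter relative of the element (ERSE-II, searched as ATTGGNCCACG on both strands) was found in 2 of the 29 genes, Herpud1 and Dnajb11, against 12 of 27025 genes (0.0444%). The Herpud1 copy is shown because it lies wholly before the start site, while that of Dnajb11 begins 7 bases after it.
Herpud1: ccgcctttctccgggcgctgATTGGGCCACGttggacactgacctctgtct
It lies at chr8:94386357-94386407 on the plus strand and begins 52 bases before the start site. The core of the unfolded protein response element (TGACGTGG) was found in Sec24d and Txndc5, 2 of 29 genes against 193 of 27025 (0.714%). The letters of the C/EBP-ATF response element (TGATGNAA), which ATF4 of the PERK branch can bind, were found in Herpud1 and Txndc5, 2 of 29 genes against 1219 of 27025 (4.51%). A match is a run of letters and not a measured binding site, and no match says only that these letters are not in the window.

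FGF1 raised most of the folding genes together. Of the 34 tested genes, 23 (67.6%) were higher than in control, against 19.3% of all 13869 genes, and 0 were lower, against 15.1% of all genes. None of the 34 was lower at an unadjusted p under 0.05 either, where 2586 of all 13869 genes were, nor by voom on the recovered reads. The rise covered 6 of 6 chaperones, 6 of 7 disulfide isomerases, 5 of 6 J-proteins and cofactors and both transport genes, but only 2 of 7 tested degradation genes, 2 of 4 sensors and neither phosphatase subunit. The median log2 change was 0.44 over the 34 genes and 0.02 over all genes, and the highest were those of Pdia6 and Manf, both 0.83.

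FGF8b, compared with the same control libraries, split the genes. It raised 10 of 34 (29.4%, against 37.8% of all genes) and lowered 14 (41.2%, against 26.6%), with a median log2 change of -0.08 beside 0.08 for all genes. After a trimmed-mean scaling of the libraries the split was 7 higher and 16 lower, with 32% of all genes higher and 30.8% lower. The 10 that rose were 3 chaperones (Hyou1, Hspa13 and Canx), 3 degradation genes (Herpud1, Derl1 and Edem1), the sensors Atf6 and Ern1, and both phosphatase subunits. Those that fell included 6 of 7 disulfide isomerases, the lectin chaperone Calr, the cofactors Sdf2l1 and Dnajb11, the sensor Eif2ak3 and the transport gene Sec24d. Tested directly against FGF1, cells given FGF8b had 23 of the 34 genes lower (67.6%, against 26.6% of all genes) and 6 higher (17.6%, against 33.3%), with a median difference of -0.53 beside 0.04 for all genes. The 6 that were higher than with FGF1 were Herpud1, Derl1, Atf6, Ern1, Ppp1r15a and Ppp1r15b.

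FGF9 gave 10 genes higher than control (29.4%, against 38.7% of all genes) and 14 lower (41.2%, against 27% of all genes), a split of 7 and 18 after trimmed-mean scaling, where 32.6% of all genes were higher and 31.2% lower. Tested directly against FGF8b, it differed in 0 of 34 genes in either direction, where 0.202% of all genes were higher and 0.0937% lower. At an unadjusted p under 0.05, 2 of the 34 were higher with FGF9 (Hyou1 and Ern1) and 0 lower. At that threshold 523 of all 13869 genes were higher and 454 lower. Voom also called 0 of the 34. The 95% intervals of the 34 differences lay between -0.30 and 0.44 on the log2 scale, so differences beyond that range between FGF9 and FGF8b were outside every interval.

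Adding BAY-876 to FGF8b raised 23 of the 34 genes (67.6%, against 22.5% of all genes) and lowered 5 (14.7%, against 34.8%), with a median log2 change of 0.38 beside -0.08 for all genes. All 6 J-proteins and cofactors rose, as did 5 of 6 chaperones, 5 of 7 tested degradation genes and 3 of 4 sensors, while the disulfide isomerases divided into 3 higher (Pdia3, Pdia4 and Pdia6), 2 lower (P4hb and Txndc5) and 2 not called. The 5 that fell were P4hb, Txndc5, Sec24d, Ppp1r15a and Ppp1r15b. The number lower was 3 when FGF8b replicate 1 was left out and also 3 after trimmed-mean scaling, both without the phosphatase subunits. After the scaling 25 of the 34 were higher, with 28.9% of all genes higher and 28.2% lower. Under that scaling 50.6% of the called genes were higher, in place of 39.3%. Against untreated control, the combination had 24 of 34 genes higher (70.6%, against 36.8% of all genes) and 7 lower (20.6%, against 35.9%), with a median log2 change of 0.72 beside 0.01.

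**Figure D2:**
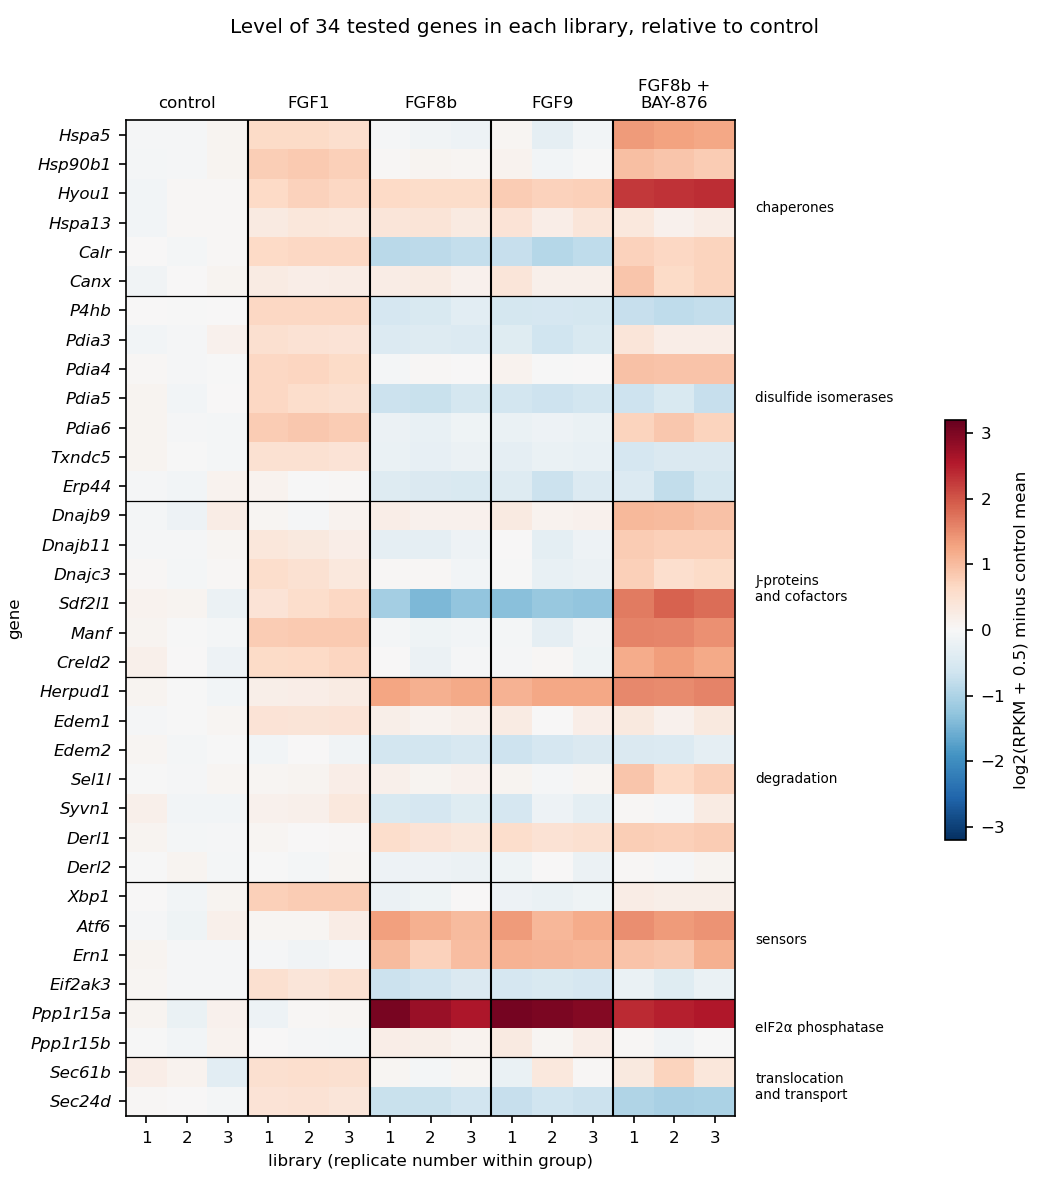
Level of the 34 tested genes (rows, grouped by role) in each of the 15 libraries (columns), as log2(RPKM + 0.5) minus the control mean, red above and blue below control. The FGF1 columns are mostly pale red, with 23 genes called higher and 0 lower, the FGF8b and FGF9 columns look alike, and Ppp1r15a is at the red end in both.

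Among the chaperones, Hspa5 encodes BiP, the main Hsp70 chaperone of the ER lumen and the most used readout of the unfolded protein response. It measured 279, 278 and 306 RPKM in the control libraries, 436, 442 and 416 with FGF1, 280.1, 267 and 255 with FGF8b, 298, 234 and 268 with FGF9 and 740.5, 704 and 682 with FGF8b + BAY-876. The FGF1 libraries lay above all control libraries and the BAY-876 libraries above all others, while control, FGF8b and FGF9 overlapped. The log2 change was 0.58 ± 0.074 (adjusted p = 1.57e-05) for FGF1, -0.10 ± 0.074 (adjusted p = 0.23) for FGF8b and 1.41 ± 0.074 (adjusted p = 4.22e-10) for BAY-876 on top of FGF8b. For FGF9 the adjusted p was 0.188, 0.0225 without FGF9 replicate 1, the highest of that group, and 0.0396 after trimmed-mean scaling.

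Hyou1 is the nucleotide exchange factor and Hsp70-like chaperone that works with BiP. It was called higher than control in each of the 4 treatments, as were Hspa13, Canx, Herpud1 and Edem1. Of all genes, 19.3% were higher than control with FGF1, 37.8% with FGF8b, 38.7% with FGF9 and 36.8% with FGF8b + BAY-876. The share of all genes higher in all 4 was not counted. For Edem1 the FGF9 call (adjusted p = 0.0393) ended without control replicate 1 or 2 or FGF9 replicate 1 or 3 (0.0813 to 0.168), after trimmed-mean scaling (0.283) and in a fit of control and FGF9 alone (0.105). Hyou1 itself measured 14.2, 15.5 and 15.5 RPKM in control, 23.8, 25.3 and 24.2 with FGF1, 23.6, 22.9 and 22.9 with FGF8b, 27.03, 25.3 and 25.7 with FGF9 and 74.8, 77.2 and 79.9 with BAY-876 added. Every treated library lay above every control library, and the BAY-876 libraries stood far above the rest. BAY-876 raised it by 1.72 ± 0.052 (adjusted p = 8.69e-13) over FGF8b, a 3.34-fold difference of means, and the change against control was 2.32 ± 0.052 (adjusted p = 3e-15). FGF8b and FGF1 did not differ past the threshold for Hyou1, with a difference of -0.08 ± 0.052, adjusted p = 0.225 and a 95% interval of -0.19 to 0.04.

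Calr encodes calreticulin, a soluble lectin chaperone for glycoproteins that also holds calcium in the ER. It measured 490.1, 468 and 500.2 RPKM in control, 758, 767 and 773 with FGF1, 269, 272 and 285 with FGF8b, 292, 259.7 and 276 with FGF9 and 815, 764 and 794 with FGF8b + BAY-876. The groups formed 3 levels that did not overlap, low with FGF8b and FGF9, middle in control, and high with FGF1 and with BAY-876. The log2 change was -0.82 ± 0.052 (adjusted p = 1.47e-09) for FGF8b and 0.66 ± 0.052 (adjusted p = 1.04e-07) for FGF1, and BAY-876 raised it by 1.52 ± 0.052 (adjusted p = 2.96e-12) from the FGF8b level. Canx encodes calnexin, the membrane-bound partner with the same glycan specificity, and it did not follow Calr: group means were 199 RPKM in control, 235 with FGF1, 232 with FGF8b and 236 with FGF9, then 333 with BAY-876 added. The Canx rise with BAY-876 over FGF8b was 0.51 ± 0.073 (adjusted p = 2.3e-05). Its smaller rises against control were not held by every library: the adjusted p went from 0.0184 to 0.0573 without FGF1 replicate 1 and 0.086 without control replicate 1 for FGF1. For FGF8b it went from 0.0147 to 0.0733 without control replicate 1 and 0.056 without FGF8b replicate 2, and for FGF9 from 0.00927 to 0.0502 without control replicate 1 and 0.0532 without FGF9 replicate 1. After trimmed-mean scaling it was 0.112 for FGF8b and 0.0927 for FGF9.

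Hsp90b1, the ER member of the Hsp90 family (GRP94), averaged 524 ± 31.2 RPKM (SD, n = 3) in control, 914 ± 21.7 with FGF1, 547 ± 8.39 with FGF8b, 526 ± 35.6 with FGF9 and 966 ± 47.9 with BAY-876 added. It thus had about the same high level in the FGF1 and BAY-876 groups, with log2 changes of 0.80 ± 0.060 (adjusted p = 5.87e-08) for FGF1 and 0.82 ± 0.060 (adjusted p = 1.91e-08) for BAY-876. Hspa13, a small Hsp70-like ATPase of microsomes, rose by 0.33 ± 0.069 with FGF1, 0.37 ± 0.069 with FGF8b and 0.34 ± 0.069 with FGF9, and BAY-876 left it at -0.13 ± 0.069 from FGF8b (adjusted p = 0.131). Hspa13 was the only chaperone of the 6 without a called rise on adding BAY-876.

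**Figure D3:**
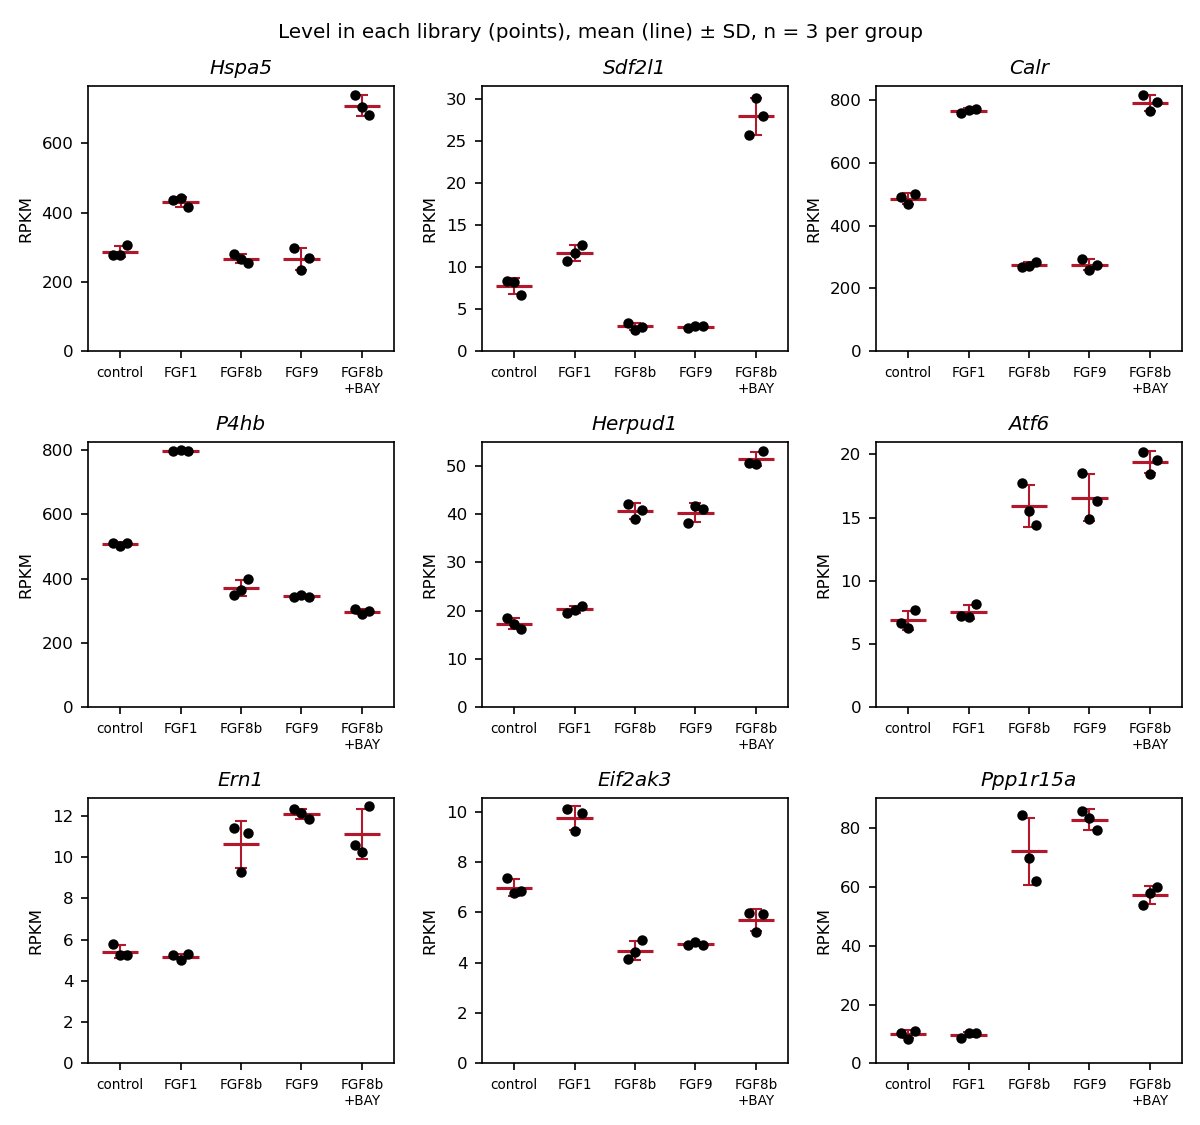
RPKM of 9 genes in each library (points), with the mean (red line) and SD (red bar) of 3 libraries per group. Hspa5 and Sdf2l1 are highest with FGF8b + BAY-876, P4hb is lowest there, and Herpud1, Atf6, Ern1 and Ppp1r15a are high in all 3 groups that received FGF8b or FGF9.

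The disulfide isomerases share thioredoxin-like domains that form and rearrange disulfide bonds. P4hb, the founding protein disulfide isomerase and also the β subunit of collagen prolyl 4-hydroxylase, measured 511, 501 and 511 RPKM in control and 797, 799 and 797 with FGF1. It fell to 349.9, 364 and 399 RPKM with FGF8b, 342, 348 and 344 with FGF9 and 305, 289 and 298 with FGF8b + BAY-876. No FGF-treated group overlapped control, and the BAY-876 libraries were the lowest of all 15. The difference of FGF8b from FGF1 was -1.11 ± 0.050 (adjusted p = 3.02e-11), and that of BAY-876 from FGF8b was -0.32 ± 0.050 (adjusted p = 5.99e-05), opposite in sign to Hspa5 in the same libraries.

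Pdia6, an isomerase that pairs with BiP, measured 192, 177 and 175 RPKM in control, 320.2, 329 and 319.6 with FGF1, 159, 153 and 164 with FGF8b, 155, 161 and 156 with FGF9 and 299.7, 329 and 299.6 with BAY-876 added. FGF1 and BAY-876 libraries overlapped each other at the top, and FGF8b and FGF9 libraries overlapped at the bottom, below control. The log2 change was 0.83 ± 0.052 (adjusted p = 8.18e-09) for FGF1, -0.19 ± 0.052 (adjusted p = 0.00451) for FGF8b and 0.96 ± 0.052 (adjusted p = 5.49e-10) for BAY-876. Pdia5, a less abundant isomerase of the same family, read 31.5, 27.8 and 30.1 RPKM in its control libraries, 47.4, 43.9 and 42.5 with FGF1, 18.4, 18.1 and 19.9 with FGF8b, 19.8, 18.6 and 19.8 with FGF9 and 18.5, 21.1 and 17.7 with BAY-876. Control and FGF1 lay apart from each other and above the other 3 groups, which overlapped. Pdia5 changed by -0.65 ± 0.071 (adjusted p = 8.37e-07) with FGF8b and differed by 0.02 ± 0.071 (adjusted p = 0.809) between BAY-876 and FGF8b.

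Pdia4, an isomerase with an extra thioredoxin domain, averaged 79.7 RPKM in control, 125 with FGF1, 79.6 with FGF8b, 82.2 with FGF9 and 152 with BAY-876 added. It was the one isomerase that FGF8b did not lower, with a 95% interval of the change of -0.10 to 0.10 (adjusted p = 0.979), and BAY-876 raised it by 0.93 ± 0.047. Pdia3 (ERp57), which acts on glycoproteins held by calreticulin and calnexin, fell by 0.43 ± 0.072 with FGF8b and rose with BAY-876 by 0.71 ± 0.072, like Calr in direction. Txndc5 (ERp46) rose with FGF1 by 0.47 ± 0.046, fell by 0.23 ± 0.046 with FGF8b and fell by 0.26 ± 0.046 more with BAY-876, the directions of P4hb. Erp44, which retains other proteins in the early secretory pathway, was the isomerase-like gene without a called rise with FGF1 (0.05 ± 0.088, adjusted p = 0.74), and it fell by 0.45 ± 0.088 with FGF8b.

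**Figure D4:**
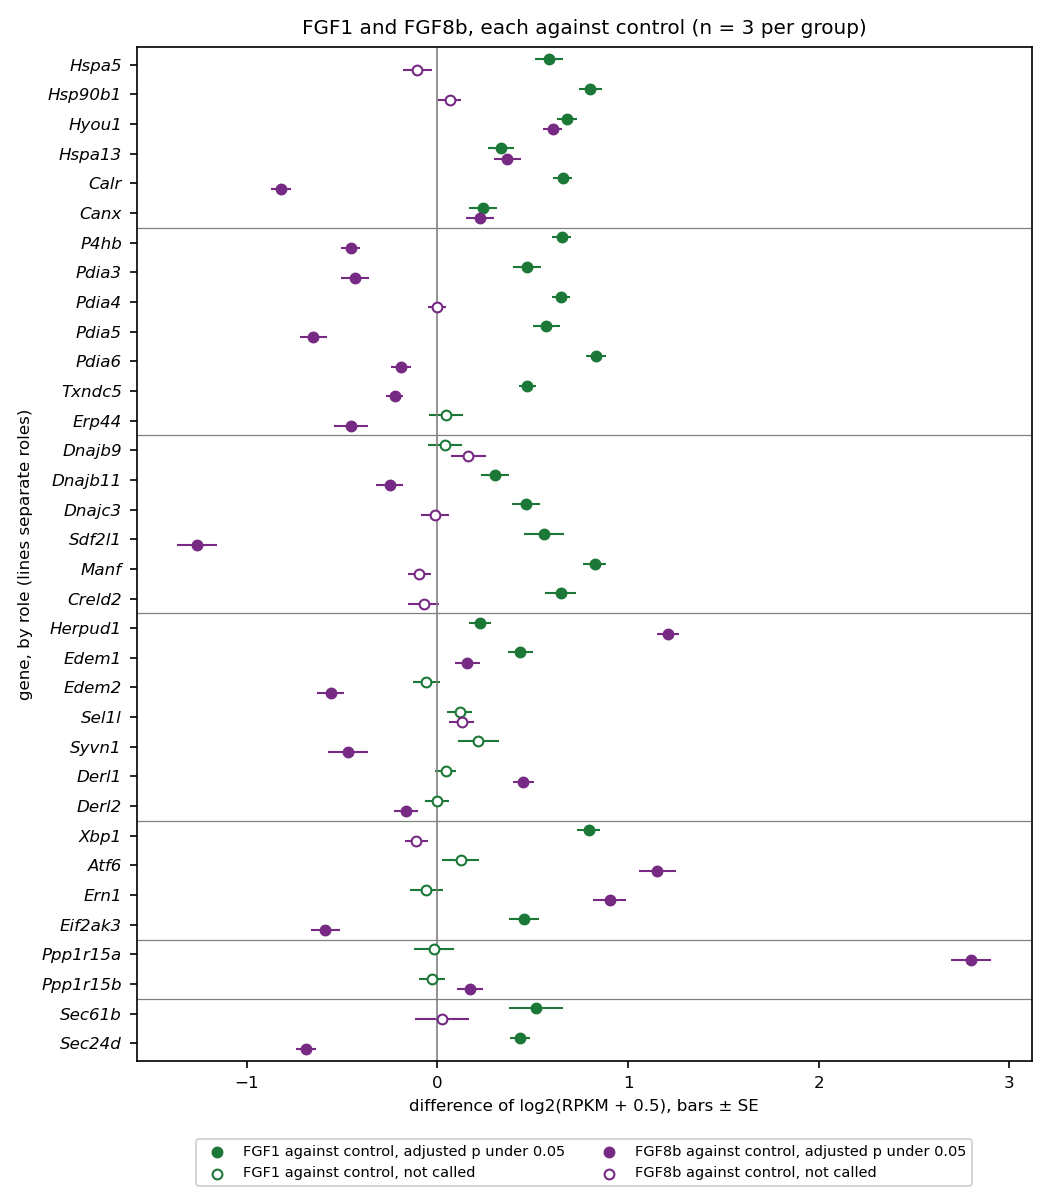
Log2 change against control ± SE of the 34 tested genes with FGF1 (green) and FGF8b (purple), 3 libraries per group, with filled points for adjusted p under 0.05. All 23 filled green points lie right of 0, and purple points spread from Sdf2l1 at -1.26 to Ppp1r15a at 2.80. Both comparisons use the same control libraries.

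J-proteins and cofactors bring clients to BiP or assist it. Sdf2l1, a partner of the ER J-proteins, had the largest response to BAY-876 of the 34 genes. It measured 8.34, 8.23 and 6.73 RPKM in control, 10.7, 11.6 and 12.6 with FGF1, 3.39, 2.53 and 2.94 with FGF8b, 2.78, 3.06 and 2.96 with FGF9 and 25.7, 30.1 and 27.9 with FGF8b + BAY-876. The order FGF8b and FGF9, control, FGF1, BAY-876 held in every library, with overlap only between FGF8b and FGF9. Sdf2l1 changed by -1.26 ± 0.10 (adjusted p = 3.04e-08) with FGF8b and BAY-876 raised it by 3.05 ± 0.10 (adjusted p = 2.82e-12), which was 9.46-fold between the means.

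Manf, a secreted and ER-resident factor that stabilises BiP-client complexes, measured 83.6, 77.6 and 74.5 RPKM in control, 138, 141 and 139.6 with FGF1, 75.5, 70.7 and 74.2 with FGF8b, 74.9, 64.7 and 72.9 with FGF9 and 237, 233 and 218 with BAY-876 added. FGF1 and BAY-876 libraries stood apart above the rest, and FGF8b and FGF9 overlapped control. The log2 change was 0.83 ± 0.060 (adjusted p = 4.32e-08) for FGF1 and 1.63 ± 0.060 (adjusted p = 6.56e-12) for BAY-876. The small fall with FGF9 (-0.15 ± 0.060, adjusted p = 0.0396) was lost without control replicate 1, control replicate 2, FGF1 replicate 3 or FGF9 replicate 2, with adjusted p from 0.0503 to 0.204, without the filter on low values (0.0537) and in a fit of control and FGF9 alone (0.121). After trimmed-mean scaling the FGF8b level was called lower too (adjusted p = 0.0282). The level of Manf depends on the transcript row: on its RefSeq row the mean was 30.3 RPKM in control, 28.4 with FGF8b and 88.9 with BAY-876 added, with the same calls. Creld2, an ER stress-induced protein with isomerase activity, measured 25.4, 23.1 and 20.1 RPKM in control, 35.3, 35.7 and 36.7 with FGF1, 23.05, 19.8 and 22.03 with FGF8b, 22.2, 23.5 and 20.7 with FGF9 and 52.9, 58.4 and 53.2 with BAY-876. It showed the picture of Manf, with FGF1 and BAY-876 each apart and the other 3 groups overlapping. Its log2 change was 0.65 ± 0.080 (adjusted p = 1.2e-05) for FGF1 and 1.32 ± 0.080 (adjusted p = 1.97e-09) for BAY-876.

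The 3 J-proteins were less uniform with the FGFs. Dnajb9 (ERdj4), which delivers misfolded proteins to degradation and is a target of XBP1, was at 9.86 RPKM in control and 10.1 with FGF1, a difference of 0.04 ± 0.090 that was not called, while BAY-876 raised it by 0.83 ± 0.090 (adjusted p = 1.25e-06). With FGF8b the difference from control was 0.16 ± 0.090 (adjusted p = 0.125, and 0.0052 without control replicate 3), and with FGF9 0.17 ± 0.090 (adjusted p = 0.103, and 0.00397 without the same library). Dnajb11 (ERdj3), a cofactor of BiP for newly made chains, rose with FGF1 by 0.30 ± 0.072, fell by 0.25 ± 0.072 with FGF8b and rose with BAY-876 by 1.04 ± 0.072 (adjusted p = 9.68e-09). Dnajc3 (p58IPK), a cofactor of BiP and an inhibitor of PERK, rose with FGF1 by 0.46 ± 0.074 and with BAY-876 by 0.65 ± 0.074, and its FGF8b level was -0.01 ± 0.074 from control (adjusted p = 0.901). With FGF9 neither Dnajb11 (adjusted p = 0.0627) nor Dnajc3 (0.0896) was called, and both were called lower without FGF9 replicate 1 (0.00406 and 0.0258) and after trimmed-mean scaling (0.00974 and 0.0149).

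ER-associated degradation extracts unfolded proteins through membrane complexes and passes them to the proteasome. Herpud1, a scaffold of the HRD1 ubiquitin ligase complex, measured 18.4, 17.2 and 16.3 RPKM in control, 19.6, 20.2 and 20.9 with FGF1, 42.1, 38.9 and 40.9 with FGF8b, 38.1, 41.7 and 41.1 with FGF9 and 50.7, 50.3 and 53.1 with BAY-876 added. The FGF8b and FGF9 libraries overlapped each other and stood far above the control and FGF1 libraries, which were apart from each other, with the BAY-876 libraries higher still. FGF8b raised it by 1.21 ± 0.057 (adjusted p = 4.47e-11), where FGF1 gave 0.22 ± 0.057 (adjusted p = 0.00665), and the direct difference between FGF8b and FGF1 was 0.99 ± 0.057 (adjusted p = 7.06e-10). BAY-876 added 0.33 ± 0.057 (adjusted p = 0.000136). Derl1, a derlin of the retrotranslocation channel, moved alike on a smaller scale. Its libraries read 40.2, 36.5 and 37.3 RPKM in control, 39.9, 38.5 and 39.01 with FGF1, 55.9, 51.3 and 49.2 with FGF8b, 55.8, 52.8 and 54.7 with FGF9 and 65.95, 64.5 and 66.6 with BAY-876. Control and FGF1 overlapped, FGF8b and FGF9 overlapped above them, and BAY-876 was on top, with changes of 0.45 ± 0.054 (adjusted p = 2.28e-06) for FGF8b and 0.33 ± 0.054 (adjusted p = 7.68e-05) for BAY-876.

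Sel1l, the adaptor that holds the HRD1 complex together, responded to BAY-876. It measured 17.9, 17.4 and 18.6 RPKM in control, 18.9, 18.99 and 20.7 with FGF1, 20.1, 19.2 and 19.8 with FGF8b, 19.01, 17.6 and 18.9 with FGF9 and 33.7, 28.1 and 30.96 with BAY-876 added. The BAY-876 libraries stood apart, and the other 4 groups spanned a narrow range in which none of the 3 FGFs was called against control. BAY-876 raised Sel1l by 0.64 ± 0.066 (adjusted p = 8.97e-07). Its ligase partner Syvn1 (HRD1) changed by -0.47 ± 0.11 (adjusted p = 0.00109) with FGF8b and rose by 0.56 ± 0.11 (adjusted p = 0.000322) with BAY-876, to 9.65 RPKM beside 9.04 in control.

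Among the other degradation genes, Edem2, a mannosidase-like factor that starts glycan trimming for degradation, fell with FGF8b from 14.9 to 9.94 RPKM (-0.56 ± 0.070, adjusted p = 4.09e-06) and with BAY-876 differed from FGF8b by 0.16 ± 0.070 (adjusted p = 0.0619, 0.0485 without FGF9 replicate 1 and 0.00344 after trimmed-mean scaling). Edem1, of the same family, rose with FGF1 by 0.43 ± 0.066 (adjusted p = 8.35e-05). Its rise of 0.16 ± 0.066 with FGF8b had an adjusted p of 0.0466, which became 0.0505 to 0.131 on leaving out any 1 of 10 libraries, namely control 1 or 2, any of FGF1 or FGF8b, FGF9 replicate 3 or FGF8b + BAY-876 replicate 3. After trimmed-mean scaling it was 0.271, and without the filter on low values 0.0568. Derl2, a derlin like Derl1, fell by 0.17 ± 0.062 with FGF8b (adjusted p = 0.0275), a call that ended, with adjusted p of 0.0519 to 0.118, without control replicate 2 or any 1 FGF8b library, and on the RefSeq row (0.412). Derl2 rose with BAY-876 by 0.20 ± 0.062 (adjusted p = 0.012, and 0.0583 without FGF8b + BAY-876 replicate 3). Derl3, the untested derlin that is otherwise typical of secretory tissues, was listed at 0.0871, 0.0481 and 0 RPKM in control, 0.166, 0 and 0.129 with FGF1, 0.0488, 0 and 0 with FGF8b, 0.0381, 0.0366 and 0.0204 with FGF9 and 0.206, 0.231 and 0.303 with BAY-876 added. The 3 BAY-876 libraries were the highest of the 15, at levels too low for a test.

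**Figure D5:**
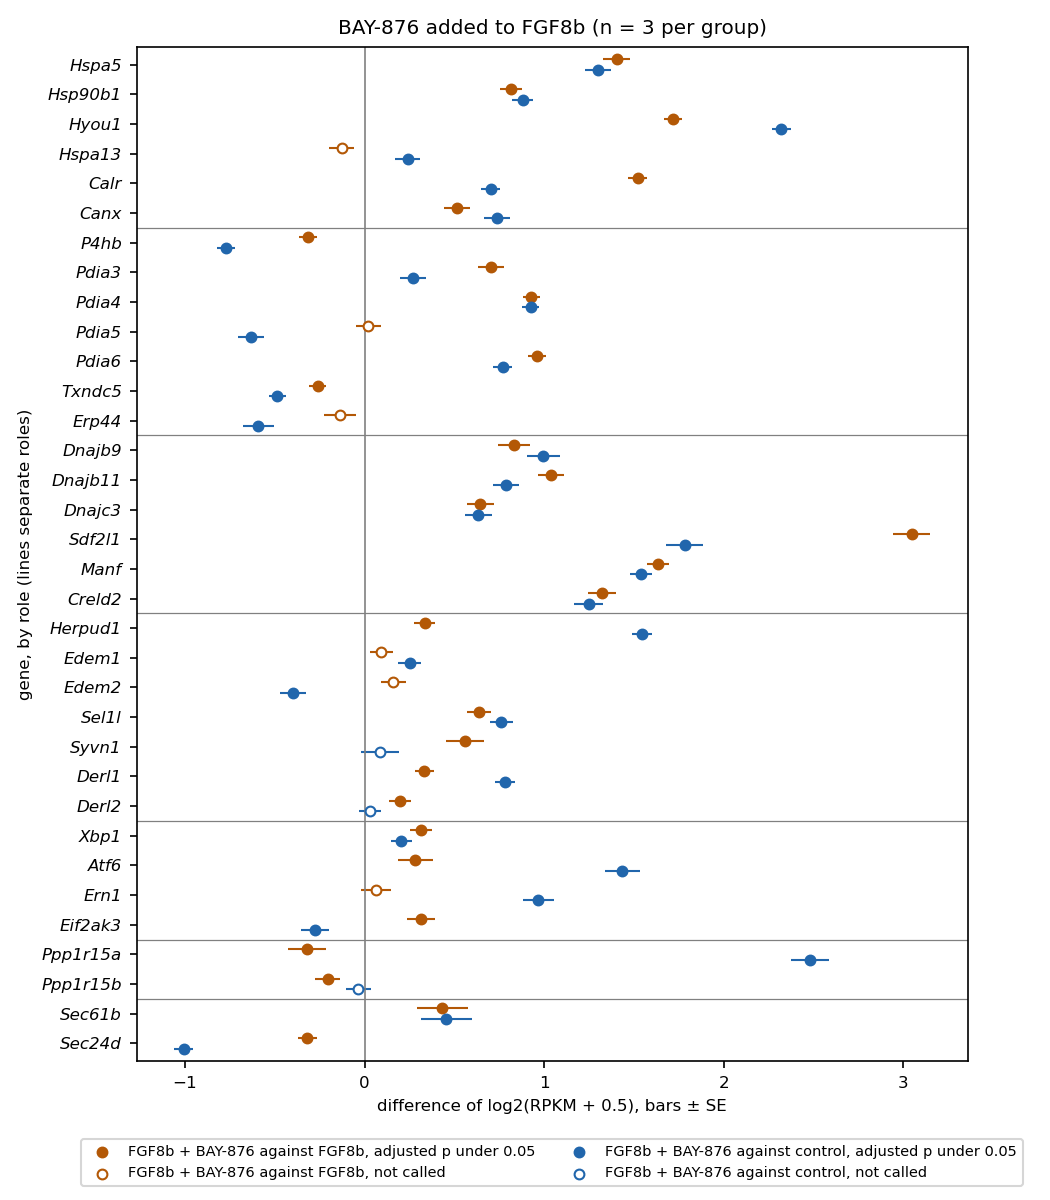
Log2 difference ± SE of cells given FGF8b + BAY-876 from cells given FGF8b (orange) and from control (blue), 34 tested genes, 3 libraries per group, with filled points for adjusted p under 0.05. Sdf2l1 lies farthest right of the orange points at 3.05, and P4hb, Txndc5 and Sec24d lie left of 0 in both comparisons, which share the BAY-876 libraries.

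The transcripts of the sensors moved apart with FGF8b. Atf6, the membrane-bound transcription factor that is cleaved in the Golgi on stress, measured 6.67, 6.24 and 7.73 RPKM in control, 7.24, 7.14 and 8.18 with FGF1, 17.7, 15.5 and 14.4 with FGF8b, 18.5, 14.9 and 16.3 with FGF9 and 20.2, 18.5 and 19.6 with BAY-876 added. All libraries with FGF8b or FGF9 lay above all control and FGF1 libraries, with a change of 1.15 ± 0.097 (adjusted p = 4.38e-08) for FGF8b and 1.21 ± 0.097 (adjusted p = 2.28e-08) for FGF9. The further rise with BAY-876 was 0.28 ± 0.097 with an adjusted p of 0.0212, which became 0.0588 without FGF8b replicate 2, 0.0978 without FGF8b replicate 3, 0.065 without BAY-876 replicate 1 and 0.0535 without BAY-876 replicate 3. Ern1 encodes IRE1α, the kinase and nuclease that splices Xbp1. Its libraries read 5.78, 5.25 and 5.25 RPKM in control, 5.24, 5.02 and 5.29 with FGF1, 11.4, 9.30 and 11.2 with FGF8b, 12.3, 12.1 and 11.9 with FGF9 and 10.6, 10.3 and 12.5 with BAY-876. Again the groups with FGF8b or FGF9 did not overlap control or FGF1. The change was 0.90 ± 0.086 (adjusted p = 1.76e-07) for FGF8b and -0.06 ± 0.086 (adjusted p = 0.65) for FGF1, and BAY-876 left Ern1 at 0.06 ± 0.086 (adjusted p = 0.546) from FGF8b.

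Eif2ak3, which encodes the eIF2α kinase PERK, went the other way. It measured 7.37, 6.75 and 6.83 RPKM in control, 10.1, 9.22 and 9.95 with FGF1, 4.14, 4.41 and 4.90 with FGF8b, 4.69, 4.82 and 4.69 with FGF9 and 5.96, 5.20 and 5.92 with BAY-876 added. FGF1 libraries were above control and all libraries with FGF8b or FGF9 below it. The change was 0.45 ± 0.077 (adjusted p = 0.000257) for FGF1, -0.59 ± 0.077 (adjusted p = 6.57e-06) for FGF8b and 0.31 ± 0.077 (adjusted p = 0.00267) for BAY-876 over FGF8b. Xbp1, the substrate of IRE1 and, once spliced, a transcription factor for chaperone and degradation genes, measured 31.4, 29.3 and 32.9 RPKM in control, 52.8, 55.1 and 55.2 with FGF1, 27.1, 28.1 and 31.4 with FGF8b, 27.7, 26.9 and 28.1 with FGF9 and 37.1, 35.3 and 35.6 with BAY-876 added. FGF1 libraries stood far above the rest, and BAY-876 libraries lay above control and FGF8b. The change was 0.79 ± 0.059 (adjusted p = 5.76e-08) for FGF1 and 0.32 ± 0.059 (adjusted p = 0.000315) for BAY-876. For FGF8b it was -0.11 ± 0.059 with an adjusted p of 0.116, which was 0.0498 without control replicate 2, 0.0185 without FGF8b replicate 3 and 0.0103 after trimmed-mean scaling. With FGF9 Xbp1 was called lower than control. That call ended without control replicate 3 (adjusted p = 0.0783) or FGF9 replicate 2 (0.0527). The table does not separate spliced from unspliced Xbp1, so these are levels of total mRNA and not of sensor activity.

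Of the phosphatase subunits, Ppp1r15a had the widest difference between FGF8b and FGF1 of all 34 genes (2.82 ± 0.11). It encodes GADD34, which is induced downstream of ATF4 and restores protein synthesis, and it measured 10.4, 8.44 and 10.8 RPKM in control, 8.75, 10.2 and 10.3 with FGF1, 84.6, 69.9 and 62.1 with FGF8b, 86.04, 83.7 and 79.3 with FGF9 and 53.8, 57.9 and 60.2 with BAY-876 added. Control and FGF1 overlapped, and all 9 libraries given FGF8b (with or without BAY-876) or FGF9 were several times higher. The rise with FGF8b was 2.80 ± 0.11 (adjusted p = 3.05e-12), or 7.29-fold between means, and FGF1 gave -0.02 ± 0.11 (adjusted p = 0.921). FGF8b replicate 1 was the highest of its group, and the lower level with BAY-876 (-0.32 ± 0.11, adjusted p = 0.0174) was not called without it (adjusted p = 0.108), without BAY-876 replicate 1 (0.0617) or after trimmed-mean scaling (0.0758). Ppp1r15b, the constitutive counterpart (CReP), measured 14.96, 14.2 and 16.4 RPKM in control, 15.3, 14.9 and 14.4 with FGF1, 17.6, 17.3 and 16.5 with FGF8b, 18.5, 15.8 and 17.5 with FGF9 and 15.5, 13.9 and 15 with BAY-876. Its groups lay close together, with called differences of 0.17 ± 0.070 between FGF8b and control, 0.18 ± 0.070 between FGF9 and control, 0.20 ± 0.070 between FGF8b and FGF1, and -0.20 ± 0.070 between BAY-876 and FGF8b. None of the 4 was called after trimmed-mean scaling (adjusted p of 0.236, 0.217, 0.0734 and 0.177). The call of FGF8b against FGF1 (0.0229) ended, with adjusted p of 0.0513 to 0.0766, without FGF1 replicate 2 or 3 or FGF8b replicate 1 or 2. The call of FGF8b against control (0.0438) ended without any 1 of 9 libraries (control 1 or 2, any of FGF1, FGF8b 1 or 2, FGF9 replicate 3 or BAY-876 replicate 3), with adjusted p of 0.0524 to 0.175, without the filter on low values (0.052) and in a fit of those groups alone (0.0662). The call of FGF9 against control (0.0321) ended without control replicate 1 or 2 or FGF9 replicate 1 or 3 (0.0738 to 0.137) and in a fit of those groups alone (0.0973). The call of BAY-876 against FGF8b (0.0206) ended without FGF8b replicate 1 or 2 or BAY-876 replicate 2, with adjusted p of 0.0542 to 0.0881.

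Of the transport pair, Sec24d is a cargo-binding subunit of the COPII coat that carries procollagen and other cargo out of the ER. It measured 45.6, 44.4 and 42.1 RPKM in control, 59.8, 60.96 and 58.02 with FGF1, 26.5, 26.4 and 28.4 with FGF8b, 26.2, 28.3 and 27.2 with FGF9 and 22.3, 21.2 and 21.5 with BAY-876 added. The FGF1 libraries were the highest and the BAY-876 libraries the lowest, with overlap only between FGF8b and FGF9. The change was 0.43 ± 0.052 (adjusted p = 8.02e-06) for FGF1, -0.69 ± 0.052 (adjusted p = 1.03e-08) for FGF8b and -0.32 ± 0.052 (adjusted p = 7.94e-05) for BAY-876, the same 3 directions as P4hb and Txndc5. Sec61b, a subunit of the channel through which chains enter the ER, measured 55.5, 52.2 and 37.9 RPKM in control, 68.3, 69.4 and 68.5 with FGF1, 49.98, 46.1 and 49.96 with FGF8b, 41.2, 60.4 and 49.1 with FGF9 and 59.2, 78.2 and 61.6 with BAY-876. It had the largest standard error of the 34, with control replicate 3 low and BAY-876 replicate 2 high, and the FGF1 and BAY-876 libraries lay above all control and FGF8b libraries. The rise with FGF1 was 0.52 ± 0.14 (adjusted p = 0.00989), with an adjusted p of 0.0537 without control replicate 3 and 0.0557 on the sum of its transcript rows. The rise with BAY-876 was 0.43 ± 0.14 (adjusted p = 0.0161), with an adjusted p of 0.0548 without FGF8b replicate 2, 0.091 without BAY-876 replicate 2 and 0.064 on the sum of rows.

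Read across FGF1, FGF8b and the addition of BAY-876, 8 genes were higher with FGF1, not called with FGF8b and higher with BAY-876: Creld2, Dnajc3, Hsp90b1, Hspa5, Manf, Pdia4, Sec61b and Xbp1. Of all 13869 genes, 1.09% had that pattern. A further 6 were higher, lower and higher, as were 1.04% of all genes: Calr, Dnajb11, Eif2ak3, Pdia3, Pdia6 and Sdf2l1. P4hb, Sec24d and Txndc5 were higher, lower and lower, as were 1.58% of all genes. Atf6 and Derl1 were not called, higher and higher, 2 of 34 genes, beside 5.8% of all genes. FGF1 and FGF8b share the control libraries and the last 2 steps share the FGF8b libraries, so the steps are not independent and the patterns are a description.

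Split by promoter sequence, the 8 tested genes with the ER stress element were all higher with BAY-876 than with FGF8b, where 22.5% of all genes were higher and 34.8% lower, with a median change of 0.89. The 20 genes with a window and no element had 11 higher and 4 lower, with a median of 0.26. With FGF1, 7 of the 8 were higher than control (median 0.62), beside 13 of the 20 (median 0.43) and 19.3% of all genes. With FGF8b, 1 of the 8 was higher and 3 lower (median -0.09), beside 4 higher and 11 lower of the 20 (median -0.20) and 37.8% higher and 26.6% lower of all genes. Outside the list, 9 tested genes matched by symbol hold the element, of which 2 were higher and 3 lower with BAY-876 (22.2% and 33.3%, median -0.05). Over all genes, 22.5% were higher and 34.8% lower. Ero1b also holds the element, but the expression table lists it as Ero1lb, so these counts miss it. Under that symbol it went from 2.58 RPKM with FGF8b to 5.94 with BAY-876 added (log2 change 1.06, adjusted p = 1.15e-06). Sdf2l1, with the largest BAY-876 response, had a window without any of the 4 searched motifs, and Hyou1 and Manf had no window to search.

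Other genes of the secretory pathway were counted from further lists. With FGF1, 16 of 18 COPII transport genes were higher than control and 0 lower (19.3% and 15.1% of all genes), among them Kdelr3, a receptor that returns ER proteins from the Golgi (0.87 ± 0.049, adjusted p = 2.89e-09), and Sec23a, of the inner coat (0.71 ± 0.051, adjusted p = 4.32e-08). Of 20 translocon genes 14 were higher and 0 lower with FGF1, and of 14 genes of oligosaccharyl transfer and glycan trimming 10 were higher and 0 lower. With BAY-876, 1 COPII gene was higher and 11 lower than with FGF8b, while 22.5% of all genes were higher and 34.8% lower. For the translocon 4 were higher and 9 lower (20% and 45%), not far from those shares. Oligosaccharyl transfer and glycan trimming had 3 of 14 higher and 5 lower (21.4% and 35.7%). Of 14 further regulators of the unfolded protein response, 1 was higher and 9 were lower with BAY-876 (7.14% and 64.3%). Of 17 collagen folding genes, 12 were lower with FGF8b than in control and 0 higher (26.6% and 37.8% of all genes), and 13 were lower and 2 higher with BAY-876. P4ha3, an α subunit that pairs with P4hb in prolyl 4-hydroxylase, went from 22.7 to 4.14 RPKM with FGF8b (-2.32 ± 0.11, adjusted p = 7.02e-11).

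Of the genes listed as output of the PERK branch, to which Ppp1r15a also belongs, all 12 tested were higher with FGF8b than in control (37.8% of all genes), with a median of 1.91, among them Trib3, a pseudokinase induced with CHOP, from 2.99 to 56.5 RPKM (4.03 ± 0.094, adjusted p = 1.23e-14), and Asns, asparagine synthetase, from 17.01 to 159 RPKM (3.19 ± 0.065, adjusted p = 2.9e-15). FGF1 raised 6 of the 12 and lowered 3 (50% and 25%, against 19.3% and 15.1% of all genes). BAY-876 raised 2 and lowered 5 from the FGF8b level (16.7% and 41.7%, near the 22.5% and 34.8% of all genes). In the same FGF8b libraries the transcript of PERK itself, Eif2ak3, was lower than in control. The list is only named for the PERK branch: these are mRNA levels, PERK activity was not measured, and what raised these genes was not tested. Of 7 genes listed as substrates of IRE1-dependent decay, 6 were lower with FGF8b than in control and 6 were lower with BAY-876 than with FGF8b, where 26.6% and 34.8% of all genes were lower. In both steps 5 were lower, among them Col6a1, a collagen chain (-2.88 ± 0.10, adjusted p = 1.29e-12 with FGF8b), and Sparc, a secreted matrix protein (-2.23 ± 0.069, adjusted p = 2.95e-13). Of all genes, 1.58% were lower in both steps and higher with FGF1, 3.89% lower in both and lower with FGF1, and 4.98% lower in both and not called with FGF1. The steps share the FGF8b libraries. IRE1 activity and mRNA decay were not measured, and what lowered these genes was not tested. Pdgfrb, which is also in the preadipocyte marker list, was lower with FGF8b (-1.45) and higher with BAY-876 than with FGF8b (0.39). Among 12 genes of ER oxidation and further thioredoxin-fold genes, 8 were higher and 3 lower with FGF8b (37.8% and 26.6% of all genes), and Ero1l (Ero1α), the oxidase that recharges P4hb, went from 19.4 to 105 RPKM (2.41 ± 0.078, adjusted p = 4.24e-13) while P4hb fell. With BAY-876, 2 of the 12 were higher and 9 lower than with FGF8b, beside 22.5% and 34.8% of all genes.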

How the data were processed

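Total RNA from 15 samples was made into TruSeq libraries, a kit that does not mark strand, so overlapping antisense genes cannot be told apart. The authors deposited 1 table of 168326 transcript rows, read here as RPKM because low values were whole multiples of 1 read per library (94.3% to 95.0% within 0.05 of a read). CASAVA and bcl2fastq are named, per the submitters' processing notes, and the aligner, genome build and annotation were not given in the sources used here. Rows with a symbol (145154) gave 29072 genes, each represented by its row with the highest mean, and genes reaching 0.5 RPKM in 3 or more libraries were kept. limma 3.58.1 in R 4.3.3, with a mean-variance trend, was fitted to log2(RPKM + 0.5) in all 15 libraries (5 groups, 10 residual degrees of freedom) for 7 comparisons, with Benjamini-Hochberg adjustment over the 13869 genes. The fit was tested on simulated data. Genes named with the value of every library were, in each role, up to 3 with the largest called change, plus Hspa5, Xbp1, Atf6, Ern1, Eif2ak3 and Ppp1r15a. In each further list, the genes named are among the 3 with the largest called change and no overlap in that comparison. The members, lists and rules were chosen with earlier results of these data known. Promoter windows were searched with Python 3.11.15. Whole reads were recovered for 100% of the tested genes (tolerance 0.02 of a read), and voom on them called 62 to 10052 genes per comparison. The alternatives were pseudocounts of 0.1 and 1, no filter, trimmed-mean scaling, voom on reads recovered from the values, the sum of rows per gene, only the groups compared, a replicate block, leaving out each library, and, added after the data were seen, the RefSeq row of each gene. Older symbols (Ero1l, Ero1lb, Emr1, Igj, Vimp) are those of the table.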

Additional observations from a re-analysis of the deposited data

How the results depend on the processing

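The number of the 34 genes lower with BAY-876 than with FGF8b was 5, and 3 under trimmed-mean scaling, which also moved the higher share of all called genes from 39.3% to 50.6%. No other count of called genes among the 34 moved by over 1.5 times under any other setting that kept all libraries. On leaving out 1 library at a time, the counts ranged from 22 to 23 higher and stayed at 0 lower for FGF1 against control, 7 to 11 higher and 13 to 14 lower for FGF8b, 7 to 11 higher and 12 to 16 lower for FGF9, 21 to 24 higher and 3 to 5 lower for BAY-876 over FGF8b (3 without FGF8b replicate 1), 23 to 24 higher and 7 lower for the combination against control, 5 to 6 higher and 22 to 23 lower for FGF8b against FGF1, and 0 in both directions for FGF9 against FGF8b. Over all genes, the 41 calls of FGF9 against FGF8b became 27 with a pseudocount of 0.1, 62 with voom, 66 on RefSeq rows, 0 in a fit of only those groups and 6 to 44 on leaving out 1 library.

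Of 238 gene results (34 genes in 7 comparisons), none changed direction past the threshold. Trimmed-mean scaling ended 9 calls and added 8, and both pseudocounts and voom changed none. The largest move of any log2 change among the 34 was 0.202, for Sdf2l1 with BAY-876 under voom. Whether the replicate numbers pair the libraries was not settled. Of 30 same-numbered pairs, 10 correlated above 0.1 (range -0.443 to 0.534), and differently numbered pairs were not compared. The highest value was that of FGF9 replicate 1 with FGF8b + BAY-876 replicate 1. A fit with the replicate block left the counts within 1.5 times and added 1 call, Dnajc3 lower with FGF9 (adjusted p = 0.0391). With 3 libraries per group, calls on small changes, such as those of Canx, Edem1, Derl2 and Ppp1r15b, rested on single libraries.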

Other observations

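Chaperones of other compartments gave other counts than the ER genes. Of 13 cytosolic heat shock genes, 11 were higher with BAY-876 than with FGF8b and 0 lower (adjusted p under 0.05 from limma; 22.5% and 34.8% of all genes), among them Hspa4l, an Hsp110-family exchange factor, from 13.7 to 31.4 RPKM (1.16 ± 0.099, adjusted p = 9.81e-08), and Hspb1, a small heat shock protein, from 2.33 to 8.55 RPKM. FGF1, which raised 23 of the 34 ER genes, raised 1 of these 13 and lowered 5 (19.3% and 15.1% of all genes). Cryab, another small heat shock protein, measured 50.1, 43.8 and 41.9 RPKM in control, 26.8, 32 and 25.2 with FGF1, 3.63, 3.52 and 3.85 with FGF8b and 12.97, 19.3 and 14.99 with BAY-876 added. The FGF8b libraries were the lowest and the control libraries the highest, with no overlap among these 4 groups. Hspa1a and Hspa1b are near-identical copies, so their values are uncertain.

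All 8 mitochondrial chaperone and protease genes were higher with FGF8b than in control (37.8% of all genes), and with FGF1 0 were higher and 1 lower. Hspa9, the mitochondrial Hsp70, measured 107, 105 and 119 RPKM in control, 102, 102 and 104 with FGF1, 447, 429.5 and 414 with FGF8b, 469, 390.4 and 437 with FGF9 and 496, 462 and 463 with BAY-876 added. Control and FGF1 libraries lay far below those with FGF8b or FGF9. Its change with FGF8b was 1.96 ± 0.065 (adjusted p = 6.38e-13), while Hspa5, its ER relative, was at -0.10 ± 0.074 (adjusted p = 0.23). BAY-876 raised 3 of the 8 and lowered 2, where 22.5% of all genes were higher and 34.8% lower.

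Vimp (Selenos), a partner of the derlins, was lower with FGF8b (-1.04 ± 0.062, adjusted p = 7.56e-10) and higher with BAY-876 (0.96 ± 0.062, adjusted p = 4.36e-09), the directions of Calr and Sdf2l1 and, for FGF8b, opposite to that of Derl1. Vimp belongs to a list of 19 further tested genes of ER degradation. With BAY-876, 2 of these were higher than with FGF8b and 7 lower (10.5% and 36.8%), beside 22.5% and 34.8% of all genes.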
